A study of Mus musculus with 80 samples.

Results

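The comparison described here asks whether EOM and TA muscle stem cells (MuSCs) changed differently after grafting. For each gene the change of EOM cells, graft minus pre-graft, was reduced by the change of TA cells, and the difference is called the interaction. It was computed over 30 of the 40 RNA libraries of the series, which holds 80 samples in all: 8 EOM and 8 TA pre-graft libraries, 7 EOM and 7 TA grafts. Of 14428 genes tested, 30 (0.208%) had an interaction with an adjusted p under 0.05, and these 30 genes are the members followed below. A negative interaction means that the gene fell more, or rose less, in EOM cells, and 22 genes (0.152%) had one. The other 8 genes (0.0554%) had a positive interaction.

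Donors were adult *Tg*:*Pax7-nGFP* mice, in which a nuclear GFP driven by the *Pax7* promoter marks MuSCs, aged 7 weeks or 7.6 weeks per the labels. Pre-graft libraries were made from 500 sorted cells of the extraocular muscles (EOM) or of the *Tibialis anterior* (TA), a limb muscle. For the graft groups, donor EOM or TA cells were injected into the pre-injured TA of immunodeficient *Rag2*-/-;*γC*-/- mice and sorted again by GFP at day 21 per the labels, so that both graft groups came out of a regenerated limb muscle. All 4 groups carry the transgene, no group was grafted into EOM, and graft libraries were made from cells sorted by GFP. Of the donors, 5 have a library in all 4 groups, all of Experiment 2.

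MuSCs lie under the basal lamina of the muscle fibre and repair it. Those of the limb descend from somites, where *Pax3*, *Lbx1* and posterior *Hox* genes mark the progenitors, whereas those of the eye muscles descend from unsegmented head mesoderm, which does not use *Pax3*. *Hox* genes encode homeodomain factors that record position along the body axis and are silent in most head muscle.

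The groups differed in depth and quality. Libraries held 963432 to 4169357 reads on genes. Mitochondrial genes took 2.96% to 28.8% of those reads before grafting and 5.59% to 81.1% in grafts. The highest share was in the TA graft of mouse 3 of Experiment 2. By group, the median share was 3.77% in EOM and 13.6% in TA pre-graft libraries, and 43.7% in EOM and 38.3% in TA grafts. Graft libraries came from 9 cells or more per the labels, with medians of 35 cells in EOM and 26 in TA, and 4 of the 14 had under 20 cells. Over all tested genes the median change was -1.36 in EOM and -0.98 in TA (log2). The median interaction was -0.31, so that an interaction of 0 lay above most genes. With mitochondrial genes left out of the library totals, the median interaction was -0.035. All 9 MuSC markers had reads in every group, and their summed level was 10880 to 18935 RPM (reads of a gene scaled to the library total) before grafting and 187 to 11863 in grafts. The 13 endothelial markers together stood at 50.4 to 4546 RPM before grafting and at 437 to 17070 in grafts. In such bulk libraries fewer cells of a type and less RNA per cell cannot be told apart.

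The 30 genes separated by which muscle carried the change. Among the 8 positive genes, *Cxcl2* rose in EOM grafts while its TA change was not called. *Hlx* rose in EOM and fell in TA, both called. *Hoxc9*, *Hoxc10*, *Hoxc11*, *Lbx1*, *Tmem61* and *Neu2* fell in TA grafts while EOM cells had few or no reads on either side. All 22 negative genes fell in EOM grafts, and 4 of them, *Pde9a*, *Slit2*, *Calcrl* and *Hdx*, also rose in TA grafts. Across all tested genes 53.5% passed the same limma test in EOM grafts, 49.6% lower and 3.87% higher, and 35.2% passed it in TA grafts, 31.6% lower and 3.58% higher.

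**Figure D1:**
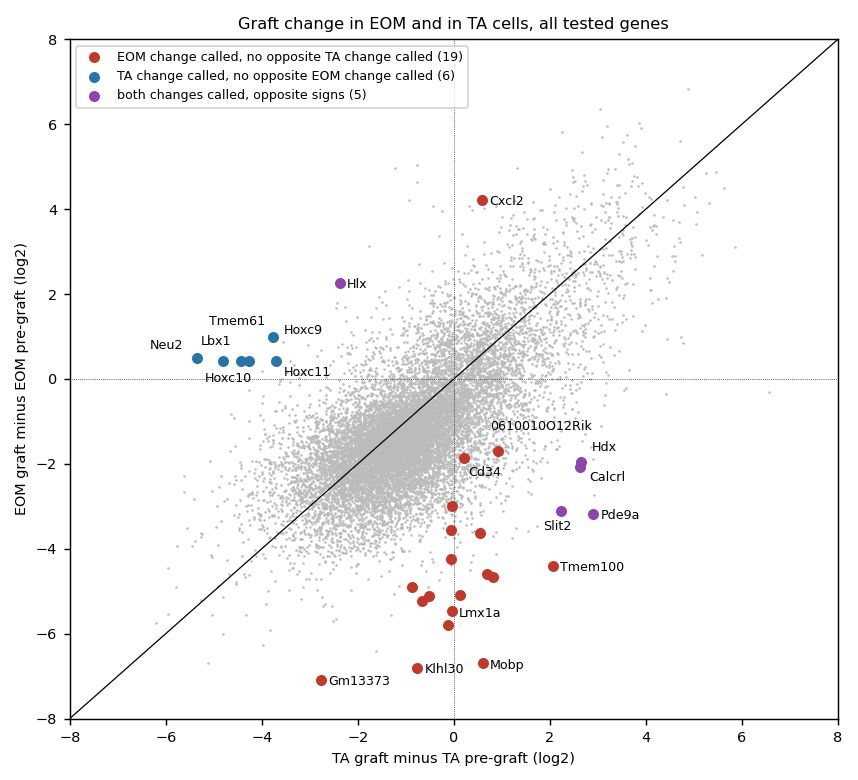
Change after grafting in TA (x axis) and in EOM (y axis), log2 of RPM, for 14428 genes (grey) and the 30 genes with an interaction (coloured by which change was called in the direction of the interaction). Points on the diagonal changed equally; 19 genes are coloured for EOM alone, 6 for TA alone and 5 for both.

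The scale matters for this separation, since the median of all genes fell after grafting. When each library was centred on its median over the tested genes, the EOM fall of 6 negative genes was no longer called while a TA rise was: *Pde9a*, *Slit2*, *Calcrl*, *Hdx*, *0610010O12Rik* and *Cd34*. The other 16 negative genes kept a called EOM fall on that scale. Over all tested genes that scale gave called EOM changes for 4.34% lower and 11.3% higher, called TA changes for 7.06% lower and 9.02% higher, and called interactions for 0.0693% lower and 0.0970% higher. After centring, *Cxcl2* and *Hlx* were classed by their EOM rise alone, *Hoxc10* and *Neu2* by their TA fall alone, and *Hoxc9*, *Hoxc11*, *Lbx1* and *Tmem61* by both. The EOM part of those last 4 is not a change in reads, because *Hoxc11* and *Lbx1* had 0 reads in all 15 EOM libraries, *Tmem61* at most 1, and *Hoxc9* reads in a single EOM graft.

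*Cxcl2*, a chemokine that attracts neutrophils, was the positive gene with the most reads in EOM grafts. It lies on chromosome 5 (GRCm38, 90903899 to 90905909, plus strand). EOM pre-graft libraries held 0, 11 and 21 reads (lowest, median and highest), and EOM grafts 47, 126 and 177 reads. TA cells held 12, 49 and 144 reads before and 21, 75 and 268 after grafting. Every EOM graft therefore lay above every EOM pre-graft library, while the TA groups overlapped. Its level rose by 4.23 ± 0.59 (log2, SE) in EOM (adjusted p = 5.93e-06), the TA difference was 0.58 ± 0.59 (adjusted p = 0.441), and the interaction was 3.65 ± 0.83 (adjusted p = 0.047). All 5 complete donors had a positive interaction, from 3.02 to 6.78. With the donor as block the adjusted p was 0.0396, after centring it was 0.0519, and leaving out 1 library kept the call in 8 of 30 cases, with a highest adjusted p of 0.0970.

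The 250 bases before the start of *Cxcl2* are shown since this gene alone combined a called rise with reads in every EOM graft. Those of *Cd34* and *Dcdc2a* are shown beside it as genes of the opposite direction, one with many reads left in EOM grafts and the other with none. Sequences are from RefSeq, GRCm38.p6, read 5′ to 3′ on the strand of the gene, at chr5:90903649-90903898, chr1:194938571-194938820 and chr13:25055754-25056003, all plus strand. Capitals mark matches, on either strand, to the kappaB motif, which is GGG and TTCC separated by any 3 bases.

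Cxcl2: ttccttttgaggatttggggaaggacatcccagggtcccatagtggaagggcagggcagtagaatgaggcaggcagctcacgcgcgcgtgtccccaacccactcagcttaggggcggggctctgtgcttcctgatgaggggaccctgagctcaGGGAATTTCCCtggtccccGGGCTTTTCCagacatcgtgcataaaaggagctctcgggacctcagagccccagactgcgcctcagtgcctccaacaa
Cd34: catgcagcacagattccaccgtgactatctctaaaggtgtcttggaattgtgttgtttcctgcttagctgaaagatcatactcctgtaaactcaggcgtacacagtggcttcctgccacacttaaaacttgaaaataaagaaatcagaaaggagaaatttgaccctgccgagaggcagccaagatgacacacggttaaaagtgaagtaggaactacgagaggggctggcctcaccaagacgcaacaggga
Dcdc2a: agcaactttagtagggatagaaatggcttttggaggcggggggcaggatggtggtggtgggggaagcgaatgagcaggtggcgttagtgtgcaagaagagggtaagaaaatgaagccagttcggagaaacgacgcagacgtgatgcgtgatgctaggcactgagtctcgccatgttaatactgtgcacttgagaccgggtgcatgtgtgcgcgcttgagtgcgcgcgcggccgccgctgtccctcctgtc

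The *Cxcl2* window held GGGAATTTCC, which starts 97 bases before the gene, overlaps a match on the other strand, and is followed by GGGCTTTTCC 78 bases before the gene. Neither of the other windows had a match. This motif was present in 4.65% of 32851 promoter windows of the same length, and in 2 of the 18 members with an entry, *Cxcl2* and *Pcsk2*. TATAAA was present in 12.4% of all windows and in that of *Slit2*, CAGCTG in 13.0% and in that of *Pcsk2*, and TAATTA in 4.84% and in 0 of the 18. These are matches of letters and no test of binding was made. *Hoxc9*, *Hoxc10*, *Hoxc11* and *Lbx1* are members with no entry in that table.

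*Hlx*, a homeobox gene of visceral mesenchyme on chromosome 1, was the other positive gene with a called rise in EOM grafts. EOM pre-graft libraries held 0 to 2 reads, so that none exceeded the 3 reads that a count of 0 allows. EOM grafts held 0, 4 and 10 reads, and 4 of 7 exceeded 3. TA cells moved the opposite way, with 4, 11.5 and 21 reads before grafting and 0, 0 and 14 after it, of which 2 of 7 grafts exceeded 3. The log2 level rose by 2.27 ± 0.62 in EOM (adjusted p = 0.00411) and fell by 2.37 on the log2 scale in TA (SE 0.62, adjusted p = 0.00499). As a bound that does not rest on the value given to a gene without reads, the mean level in EOM grafts was at least 2.03-fold higher than in EOM pre-graft libraries. The interaction was 4.64 ± 0.88 (adjusted p = 0.00665), positive in 5 of 5 donors (3.84 to 6.94), and was kept in 30 of 30 leave-one-out fits and in 12 of the 14 alternatives that tested it.

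The other 6 positive genes changed in TA cells alone. *Hoxc10*, a posterior *Hox* gene of the hindlimb and lumbar region, had 40, 78.5 and 194 reads in TA pre-graft libraries and 0, 2 and 23 in TA grafts, where 3 of 7 exceeded 3 reads. In EOM cells it had 0 reads before and at most 1 read after grafting. *Hoxc9*, its neighbour in the same cluster, had 23, 42 and 65 reads in TA cells before and 0, 1 and 26 after grafting, and 1 EOM graft held 14 reads against 0 in the other 6. *Hoxc11* had 4, 13.5 and 25 reads in TA cells before and at most 3 after, a level at least 5.51-fold lower. *Lbx1*, which directs the migration of limb muscle progenitors, had 19, 32.5 and 48 reads in TA pre-graft libraries and 0, 0 and 6 in TA grafts. Pre-graft TA libraries did not overlap TA grafts for *Hoxc10*, *Hoxc11* or *Lbx1*, and overlapped them for *Hoxc9*, while EOM libraries of both stages lay at or near 0 throughout.

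Their interactions therefore measured the TA fall, which was -4.43 ± 0.69 for *Hoxc10* (adjusted p = 4.58e-05), -3.77 ± 0.70 for *Hoxc9* (0.000313), -3.69 ± 0.49 for *Hoxc11* (5.48e-06) and -4.81 ± 0.52 for *Lbx1* (1.52e-07), each as log2 graft minus pre-graft in TA. The EOM change of these 4 genes was 0.41 to 0.98 with adjusted p-values of 0.227 to 0.595, and for *Hoxc10*, *Hoxc11* and *Lbx1* it is set by the value that the authors' table gives to a gene without reads, which differed between libraries with their depth. That of *Hoxc9* also holds the 14 reads of 1 EOM graft. With the donor as block *Hoxc9* (adjusted p = 0.0867) and *Hoxc10* (0.0946) were no longer called, while *Hoxc11* (0.0106) and *Lbx1* (0.00365) were. *Hoxc9* and *Hoxc10* lie within the annotated span of *Hoxc5* on the same strand, and reads of such transcripts cannot be told apart here.

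*Tmem61*, which encodes a transmembrane protein, had 6, 12 and 93 reads in TA cells before grafting and 0 in all 7 TA grafts, a level at least 8.10-fold lower. *Neu2*, a cytosolic sialidase, had 8 to 305 reads before grafting and 0, 0 and 34 after it in TA, with single EOM libraries at 11 (pre-graft) and 12 reads (graft). Its interaction was the largest positive one of the 30 (5.84 ± 1.19, adjusted p = 0.0153), and its TA change was -5.35 ± 0.84 (adjusted p = 4.64e-05). *Ngef* overlaps *Neu2* on the opposite strand, and use of strand in the counting is not stated, so reads of both genes cannot be separated here.

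**Figure D2:**
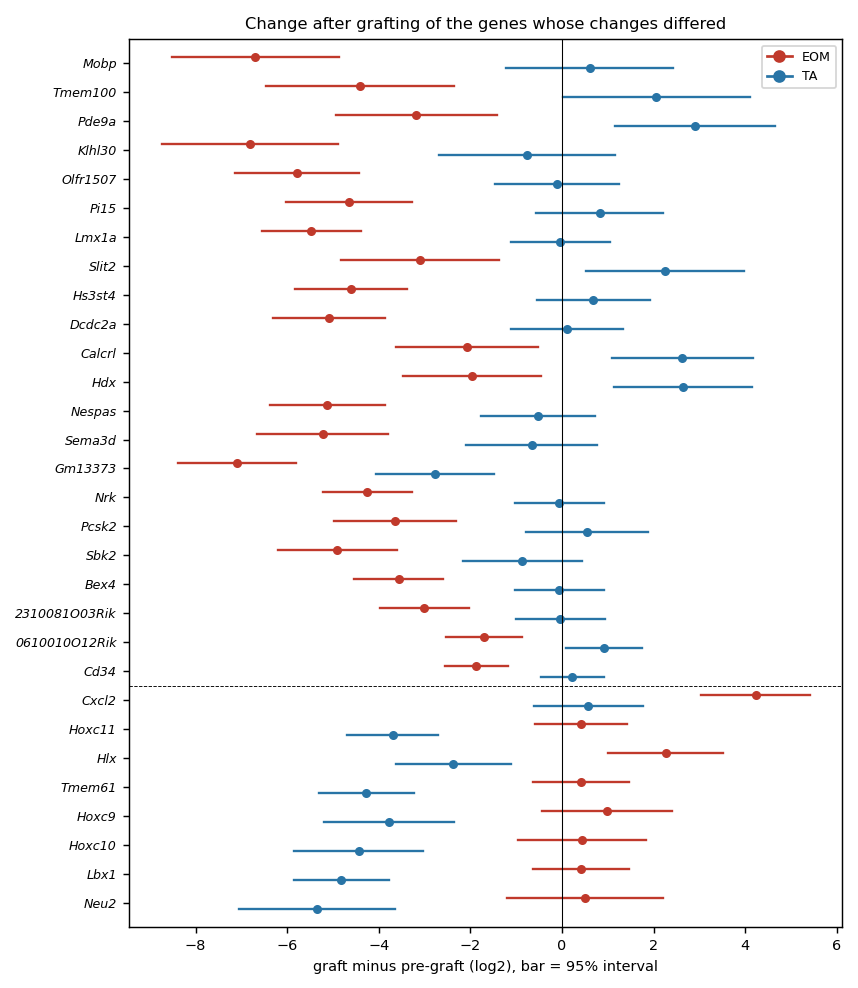
Graft minus pre-graft change (log2, x axis) in EOM (red) and TA (blue) for each of the 30 genes, with 95% intervals from limma; the 22 negative genes stand above the dashed line. The EOM intervals of the 22 lie below 0, and of the positive genes only those of *Cxcl2* and *Hlx* lie above 0 in EOM.

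The negative genes fell in EOM cells. *Lmx1a*, a LIM homeobox factor of the dorsal neural tube and cranial tissue, had 32, 81 and 165 reads in EOM pre-graft libraries and 0, 0 and 6 in EOM grafts, where 1 of 7 exceeded 3 reads. All 15 TA libraries held 0 reads. Its EOM level fell by 5.47 on the log2 scale (SE 0.54, adjusted p = 7.86e-09), and the interaction was -5.43 ± 0.76 (adjusted p = 0.000104), negative in 5 of 5 donors. TA cells could not show a fall of this gene, so the interaction measures loss from EOM cells and not a comparison with a TA response.

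The same held for other genes with at most 3 reads in every TA library. *Nrk*, a Nik-related kinase, had 12, 28 and 51 reads in EOM cells before and at most 2 after grafting, at least 6.92-fold lower. *Bex4*, a member of the brain-expressed X-linked family, went from 6, 16.5 and 45 reads to 0 in all 7 EOM grafts, at least 4.10-fold lower. *2310081O03Rik* went from 4, 10.5 and 29 reads to at most 3, at least 3.18-fold lower. The EOM groups did not overlap for any of these 4 genes, *Lmx1a* included. *2310081O03Rik* was no longer called with the donor as block (adjusted p = 0.144).

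*Dcdc2a*, a doublecortin-domain protein of cilia and microtubules, had 25, 38.5 and 90 reads in EOM pre-graft libraries and 0 in all EOM grafts, which is at least 10.6-fold lower. TA libraries held at most 3 reads before and 10 after grafting. Its interaction was -5.21 ± 0.85 (adjusted p = 0.000975). *Hs3st4*, a heparan sulfate 3-O-sulfotransferase, had 30, 45 and 62 reads in EOM cells before and at most 7 after grafting, with at most 1 and 6 reads in TA cells before and after. Its interaction was -5.29 ± 0.85 (adjusted p = 0.000885). With *Hlx*, these were the genes called under most alternatives, 12 of 14 each.

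*Klhl30* and *Gm13373* stood higher in TA cells and so left room for a TA change. *Klhl30*, a kelch-like protein, had 95, 138 and 191 reads in EOM pre-graft libraries and at most 1 in EOM grafts, at least 34.2-fold lower. Its TA reads were 0, 28 and 47 before and 0, 3 and 78 after grafting, so that the TA groups overlapped. The TA difference was -0.76 ± 0.95 (adjusted p = 0.536) and the interaction -6.04 ± 1.35 (adjusted p = 0.0402). It was the only one of the 30 that edgeR called on recovered reads (adjusted p = 0.0277), and DESeq2 called it too (2.77e-05), while the donor block did not (0.133). *Gm13373* fell in both muscles, from 97, 155 and 267 reads to 0 in all EOM grafts and from 0, 8 and 22 reads to 0 in all TA grafts. Its EOM level was at least 40.2-fold lower and its TA level at least 2.94-fold lower, and its interaction of -4.33 ± 0.90 (adjusted p = 0.0203) was not called with the donor as block (0.121).

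*Olfr1507*, *Nespas*, *Sema3d*, *Sbk2*, *Pi15* and *Pcsk2* completed the genes with little or no TA signal. *Olfr1507*, an olfactory receptor with near paralogues, had 51, 82.5 and 246 reads in EOM cells before and at most 6 after grafting. *Sema3d*, a secreted axon guidance cue, went from 34 to 257 reads to at most 11, and 3 of 7 EOM grafts exceeded 3 reads. *Nespas*, an imprinted antisense transcript of the *Gnas* locus whose reads cannot be separated from those of *Gnas* here, went from 39, 54.5 and 114 reads to at most 12. *Pi15*, a secreted protease inhibitor, *Pcsk2*, a prohormone convertase, and *Sbk2*, a serine/threonine kinase, had medians of 39.5, 21.5 and 46 reads before and 0 after grafting in EOM cells. Their interactions ran from -5.67 for *Olfr1507* to -4.04 for *Sbk2*, and the TA differences of these 6 genes, -0.87 to 0.82, were not called (adjusted p-values of 0.285 to 0.902). *Pcsk2* (adjusted p = 0.121), *Sema3d* (0.137) and *Sbk2* (0.144) were no longer called with the donor as block.

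*Mobp*, a component of central myelin, had the largest interaction, -7.30 ± 1.27 (adjusted p = 0.00204). EOM pre-graft libraries held 10, 223.5 and 3514 reads, EOM grafts 0 to 11, TA pre-graft libraries 0 and TA grafts 0 to 20. Its level before grafting varied more than that of any other negative gene (SD 2.75 on the log2 scale), and 4 of 5 donors showed a negative interaction, while donor 4 of Experiment 2, whose EOM pre-graft library held the fewest reads, had 2.19. The other 13 oligodendrocyte markers were read beside it. Their summed level was 63.0 to 2682 RPM in EOM pre-graft libraries, 4.75 to 172 in EOM grafts, 29.7 to 479 in TA pre-graft libraries and 4.66 to 375 in TA grafts, and the library with the highest sum was also the one with the most *Mobp*. *Mbp*, a myelin gene shared with Schwann cells, had 31, 557 and 6471 reads in EOM pre-graft libraries, whereas *Mog*, *Opalin* and *Olig2* had 0. Of the 8 members of this list that were tested, 5 fell in EOM grafts, where 49.6% of all tested genes fell. Only *Mobp* of the 8 had a called interaction, against 0.208% of all tested genes. The part of this marker list in the *Mobp* result was not tested.

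**Figure D3:**
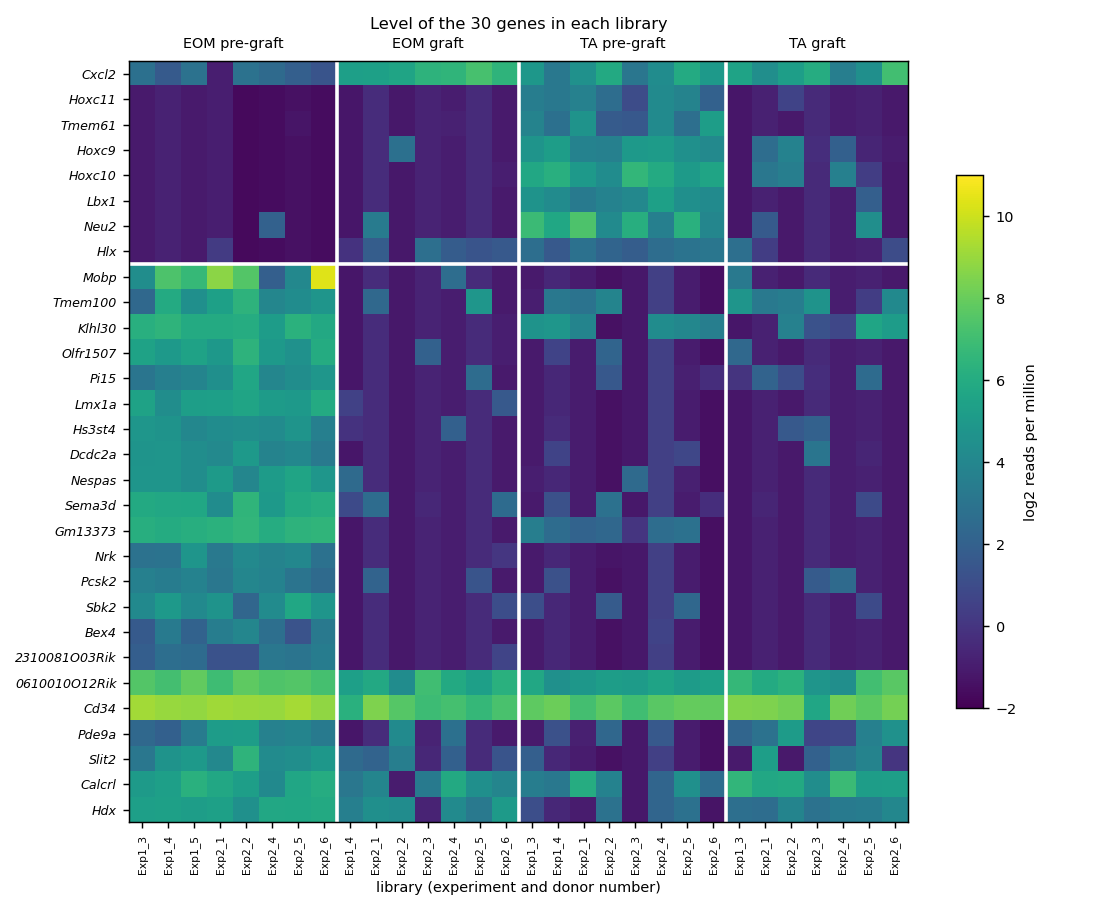
Level of the 30 genes (rows) in each of the 30 libraries (columns, grouped by muscle and stage), as log2 RPM; dark cells are at or near the value of a gene without reads. Of the 22 negative genes below the white line, *Calcrl* has its highest group mean in TA grafts and the others in EOM pre-graft libraries. Of the 8 positive genes above it, *Cxcl2* is brightest in EOM grafts and the other 7 in TA pre-graft libraries.

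A further group rose or stood higher in TA grafts. *Calcrl*, the receptor subunit for calcitonin gene-related peptide and adrenomedullin, had 48, 101.5 and 178 reads in EOM pre-graft libraries and 1, 19 and 104 in EOM grafts. TA cells held 0, 18 and 121 reads before and 25, 89 and 203 after grafting. It fell by 2.07 on the log2 scale in EOM (SE 0.76, adjusted p = 0.0232) and rose by 2.63 ± 0.76 in TA (adjusted p = 0.00985), with an interaction of -4.70 ± 1.08 (adjusted p = 0.048). Both pairs of groups overlapped, and the call was kept in 5 of 30 leave-one-out fits (highest adjusted p 0.0972) and lost with the donor as block (0.169).

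*Pde9a*, a cyclic GMP phosphodiesterase, went from 6, 31 and 106 reads to 0, 0 and 37 in EOM and from 0, 0.5 and 12 to 2, 12 and 67 in TA. *Slit2*, a secreted ligand of Robo receptors in axon guidance, went from 17, 51 and 253 to 0, 5 and 23 reads in EOM and from 0, 0 and 7 to 0, 5 and 61 in TA. *Hdx*, a homeobox gene, went from 64, 73.5 and 160 to 0, 26 and 64 reads in EOM and from 0, 2 and 18 to 9, 17 and 32 in TA. *Slit2* rose by 2.24, *Hdx* by 2.64 and *Pde9a* by 2.90 on the log2 scale in TA (adjusted p-values of 0.0389, 0.00847 and 0.0114). Their EOM falls were of like size, 1.96 to 3.18 on the log2 scale. With the donor as block the interaction of *Pde9a* was still called (adjusted p = 0.0165), and those of *Slit2* (0.165) and *Hdx* (0.146) were not.

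*Tmem100*, a transmembrane protein induced downstream of BMP receptors in endothelium, went from 10, 58.5 and 240 to 0, 0 and 33 reads in EOM grafts, with 2 of 7 grafts over 3 reads. In TA it had 0, 0.5 and 35 reads before and 0, 22 and 57 after grafting, a difference of 2.06 ± 1.01 that was not called (adjusted p = 0.104). Its interaction was -6.47 ± 1.43 (adjusted p = 0.0394), and 0.104 with the donor as block.

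*Cd34* and *0610010O12Rik* were the negative genes with reads in every library. *Cd34*, a sialomucin of quiescent MuSCs, haematopoietic progenitors and endothelium, had 785, 1173 and 1527 reads in EOM pre-graft libraries and 117, 253 and 405 in EOM grafts, with no overlap. TA cells held 131, 380 and 575 reads before and 62, 566 and 781 after grafting, and the TA groups overlapped. The mean log2 level went from 9.05 ± 0.15 (SD, n = 8) to 7.18 ± 0.72 (n = 7) in EOM and from 7.65 ± 0.38 (n = 8) to 7.88 ± 1.01 (n = 7) in TA. Its interaction was -2.09 ± 0.48 (adjusted p = 0.048) and the per-donor values were close to each other, -1.98 to -2.36 in 5 of 5 donors. It was called under 8 of 15 alternatives, centring among them (0.0457), but kept its call in 2 of 30 leave-one-out fits (highest adjusted p 0.102) and lost it with the donor as block (0.144). *0610010O12Rik* went from 209, 410 and 616 to 39, 85 and 189 reads in EOM, where the groups overlapped on the RPM scale, and from 30, 66.5 and 104 to 34, 153 and 401 in TA, with an interaction of -2.62 ± 0.58 (adjusted p = 0.0393, and 0.169 with the donor as block).

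*Cd34*, *Calcrl* and *Tmem100* are also expressed by endothelium. Of 13 endothelial markers 12 rose in EOM grafts (against 3.87% of all tested genes), where these 3 genes fell. In TA grafts 12 of the 13 rose (against 3.58%), and *Calcrl* rose too (2.63, adjusted p = 0.00985 by limma). The TA differences of *Tmem100* (2.06, adjusted p = 0.104) and *Cd34* (0.22, 0.618) were positive and not called. After centring, the EOM fall of *Cd34* and *Calcrl* was no longer called while a TA rise was. The summed level of the 13 markers had a median of 394 RPM in EOM and 1298 in TA pre-graft libraries, and of 7853 in EOM and 9470 in TA grafts. None had a called interaction, and the one with the smallest unadjusted p was *Tek* (-2.05 ± 0.61, adjusted p = 0.266), an angiopoietin receptor. The median interaction of the 13 was 1.76, opposite in sign to that of *Cd34*, *Calcrl* and *Tmem100*. Their part in those 3 results was not tested.

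**Figure D4:**
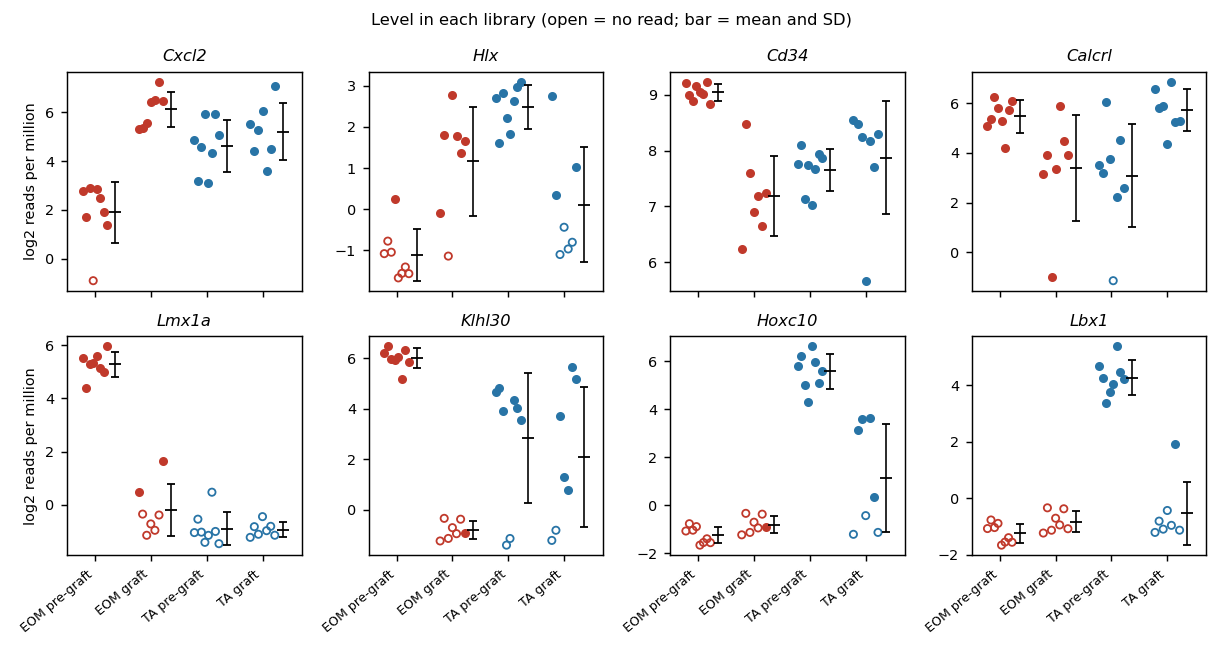
Level of 8 genes in each library (log2 RPM, y axis) by muscle and stage; open circles are libraries without a read, and bars are the group mean and SD. *Cxcl2* rises in EOM grafts alone, *Lmx1a* and *Klhl30* are at the value of no reads in most of them, and *Hoxc10* and *Lbx1* are at that value in all or nearly all EOM libraries.

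Since an interaction is also the gap between EOM and TA after grafting minus the gap before it, the gaps were set side by side. Before grafting, all 22 negative genes stood higher in EOM cells, by 1.39 to 7.27 (log2), a gap that was called for 20 of them. All 8 positive genes stood lower. Of the 30, 28 had a called gap before grafting, against 1.41% of all tested genes (0.943% higher and 0.471% lower in EOM). After grafting 0 of the 30 had one by limma, against 0.0208% of all tested genes (0.0139% higher and 0.00693% lower in EOM). After grafting the gaps of the negative genes were at most 2.89 in size. The largest were lower in EOM: *Klhl30* (-2.89), *Tmem100* (-2.52), *Pde9a* (-2.40) and *Calcrl* (-2.33). The largest gap with EOM higher was 1.09, for *Sema3d*. A gap that was not called does not show that the levels were equal. These gaps use the same libraries as the interaction and are no separate evidence for it.

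Of the genes that the study discusses in its text, 20 were listed, and all of these were tested. Called interactions were found for 3, *Lmx1a*, *Lbx1* and *Mobp* among the 30 above, against 0.208% of all tested genes. The myogenic factors fell in both muscles without a called interaction. *Pax7*, the factor that defines MuSCs, fell by 1.94 on the log2 scale in EOM and by 3.07 in TA, with an interaction of 1.14 ± 0.87 (adjusted p = 0.828). *Myf5* had an interaction of 0.33 ± 0.93 (adjusted p = 0.961) and *Myod1* one of 0.99 ± 0.86 (0.851). *Dio2*, which activates thyroid hormone, and *Tshr*, the thyrotropin receptor, fell in both muscles and had interactions of -0.71 and -0.23. None of these 5 passed the test, and their standard errors of 0.86 to 1.43 do not show that the changes were equal.

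Other genes of that group resembled the 30 without passing. *Pax3* (interaction 3.67 ± 1.32, adjusted p = 0.511) and *Tbx1* (3.30 ± 1.07, 0.376) fell in TA grafts and had medians of 0 reads in EOM cells at both stages. Single EOM libraries of Experiment 2 held *Pax3* reads, 41 in the pre-graft library of mouse 2 and 8 in the graft of mouse 5. The TA grafts of mice 2 and 4 of Experiment 2 held 88 and 74 (log2 5.51 and 5.40). Both lay above the highest TA pre-graft level (4.98), while the other TA grafts held at most 2 reads of *Pax3*. *Alx4*, a head homeobox gene, fell in EOM by 2.47 on the log2 scale with at most 5 reads in any TA library (interaction -2.13 ± 1.01, adjusted p = 0.684). *Eya2*, a transcriptional coactivator, had an interaction of -4.27 ± 1.37 (0.366). *Enpep*, an aminopeptidase, rose by 4.07 in EOM grafts, from 0, 0 and 3 reads to 0, 26 and 63, beside 0.32 in TA (interaction 3.76 ± 1.46, 0.570). *Adamtsl1*, a secreted matrix protein, had -2.53 ± 0.70 (0.166). *Hoxa10*, whose EOM libraries all held 0 reads, had 3.83 ± 0.90 (0.0573). *Hoxa11* (2.34), *Cit* (2.85), *Myog* (2.98) and *Rtn1* (-2.32) did not pass by limma either. DESeq2 called *Myog* (adjusted p = 3.33e-07) and *Adamtsl1* (0.0197). The *Myog* reads of EOM grafts came from mouse 4 of Experiment 1 alone (198), and TA grafts held none.

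Among the *Hox* clusters, 8 of 11 cluster A genes and 7 of 9 cluster C genes were tested, and the interaction was positive in all 8 and all 7, with medians of 2.42 and 3.19 beside -0.31 for all genes. Over all tested genes 35.7% had a positive interaction. *Hoxc9*, *Hoxc10* and *Hoxc11* were the only ones called, where 0.0554% of all tested genes had a called positive interaction. In cluster A 4 genes fell and 1 rose in TA grafts, and 3 rose in EOM grafts. In cluster C 3 fell in TA and 0 rose in EOM by limma. Of all tested genes 31.6% fell and 3.58% rose in TA grafts, and 3.87% rose in EOM grafts. Cluster B (4 tested, median 0.32) and cluster D (3 tested, median -0.67) had 0 called interactions by limma and 0 with an unadjusted p under 0.05. Called rises were found for 1 cluster B gene in EOM and 1 in TA grafts, and for 1 cluster D gene in EOM and 2 in TA grafts. The members of these clusters with the smallest interaction p were *Hoxb7* (1.13 ± 0.99) and *Hoxd4* (-1.16 ± 0.90). Transcription factors of head muscle (16 of 26 tested) had 1 called gene, *Lmx1a*, and limb and trunk progenitor factors (20 of 22 tested) had 1, *Lbx1*, with medians of -0.72 and 0.47. Called interactions were negative for 0.152% and positive for 0.0554% of all tested genes.

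Lists of MuSC function gave few calls. Of 25 genes of MuSC identity and niche, 20 fell in EOM and 20 in TA grafts, against 49.6% and 31.6% of all tested genes. Of the 25, *Cd34* alone had a called interaction (list median 0.33). Axon guidance and adhesion had 2 calls among 33, *Sema3d* and *Slit2*, and 10 of the 33 had an unadjusted p under 0.05. Over all tested genes 0.208% had a called interaction in either direction. Myogenic differentiation (10 tested, smallest p *Chrna1*, 3.34 ± 1.26), thyroid hormone (16, *Thrsp*, 4.19 ± 1.48) and matrix (40, *Dcn*, -6.87 ± 2.19) had none by limma. Nor had growth factor signalling (34, *Fgf1*, -3.83 ± 1.45) and cell cycle (22, *Ccnd1*, 2.84 ± 0.74). Interferon-induced genes rose in both muscles, 20 of 39 in EOM and 29 in TA, against 3.87% and 3.58% of all tested genes. They had 0 called interactions by limma and a median of -0.93. Of the 39, 4 were positive, and 4 had an unadjusted p under 0.05, with *Gbp2* the smallest (-1.58 ± 0.50). Complement (17, *Cd59a*, -2.12 ± 0.75), antigen presentation by MHC class I (16, *Erap1*, -1.36 ± 0.72) and stress of dissociation (28, *Egr3*, 2.89 ± 1.02) had none. Unadjusted p-values under 0.05 made up 7.22% of all genes.

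Markers of other cells were read in the same way. Fibro-adipogenic progenitors (11 tested, median -2.69, *Lum*), tenocytes (7, 0.15, *Scx*), pericytes and smooth muscle (9, -0.39, *Pdgfrb*), myofibres (14, 2.00, *Atp2a1*), Schwann cells and myelin (10, -2.22, *S100b*), macrophages and monocytes (9, -0.09, *Cd68*), photoreceptors (3, 0.70, *Sag*), erythroid cells (3, 5.42, *Hba-a2*) and lymphocytes (1, -0.82, *Cd79a*) had 0 called interactions by limma, where each gene is the member with the smallest p. Unadjusted p-values under 0.05 were found for 3, 0, 0, 5, 3, 0, 0, 1 and 0 of them in that order. *Cd3d*, *Cd3g* and *Cd8a* had 0 reads in all 4 groups.

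To ask whether genes of 1 muscle reached the grafts of the other, genes with over 3 reads in at least 6 of 8 libraries of 1 muscle and at most 3 reads in every pre-graft library of the other were collected. This rule was set after values had been seen, and the sets get no test. No share over all tested genes is given beside their counts, so these do not show whether detection in grafts was unusual. The EOM set held 38 genes. In EOM grafts 15 of them exceeded 3 reads in 0 of 7 grafts and 2 did so in 4 or more, *Abcb4* and *Xlr*, and in TA grafts the counts were again 15 and 2, *Nr2f1* and *Pfkfb1*. The TA set held 19 genes. In TA grafts 2 of them exceeded 3 reads in 0 grafts and 7 in 4 or more, *Enpep*, *2700086A05Rik*, *Hoxa5*, *Hoxa7*, *Hoxa10*, *Spock3* and *Akap6*. In EOM grafts 8 did so in 0 grafts and 4 in 4 or more, *Hlx*, *Enpep*, *Hoxa5* and *Akap6*. *Hoxa5* reached 45 reads and *Enpep* 63 in an EOM graft, whereas *Hoxc10*, *Hoxc11* and *Lbx1* reached at most 1.

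The calls rested on low counts in most cases. In simulated counts limma also called unchanged genes, nearly all of them with few reads in a group. There edgeR called fewer unchanged genes than limma did and recovered more of the changed ones. For 26 of the 30 genes at least 1 group had fewer than 4 libraries with 10 reads or more. When genes had to reach that level in all 4 groups, 7552 genes remained, *Cd34*, *Calcrl*, *Cxcl2* and *0610010O12Rik* among them, and limma called 0, with 377 at an unadjusted p under 0.05 and an adjusted p of 0.192 for each of the 4. On recovered reads of the 14428 genes edgeR called 2 genes (*Klhl30* lower, *Ccnd1* higher) and DESeq2 called 108, 74 higher and 34 lower, of which 10 were among the 30. Both scale libraries on the bulk of genes, and the split into higher and lower calls moved with the scaling: 8 and 22 as deposited, 10 and 14 without mitochondrial genes in the totals, and 14 and 10 after centring.

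With the donor as block, 16 of the 30 were called, 6 higher and 10 lower, and no other gene was. They are *Mobp*, *Pde9a*, *Olfr1507*, *Hs3st4*, *Pi15*, *Dcdc2a*, *Lmx1a*, *Nespas*, *Nrk*, *Bex4*, *Cxcl2*, *Hoxc11*, *Tmem61*, *Hlx*, *Lbx1* and *Neu2*. The adjusted p-values of the other 14 ran from 0.0867 to 0.169. In the 5 complete donors the interaction had the sign of the fitted one in 5 of 5 for 29 genes and in 4 of 5 for *Mobp*.

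**Figure D5:**
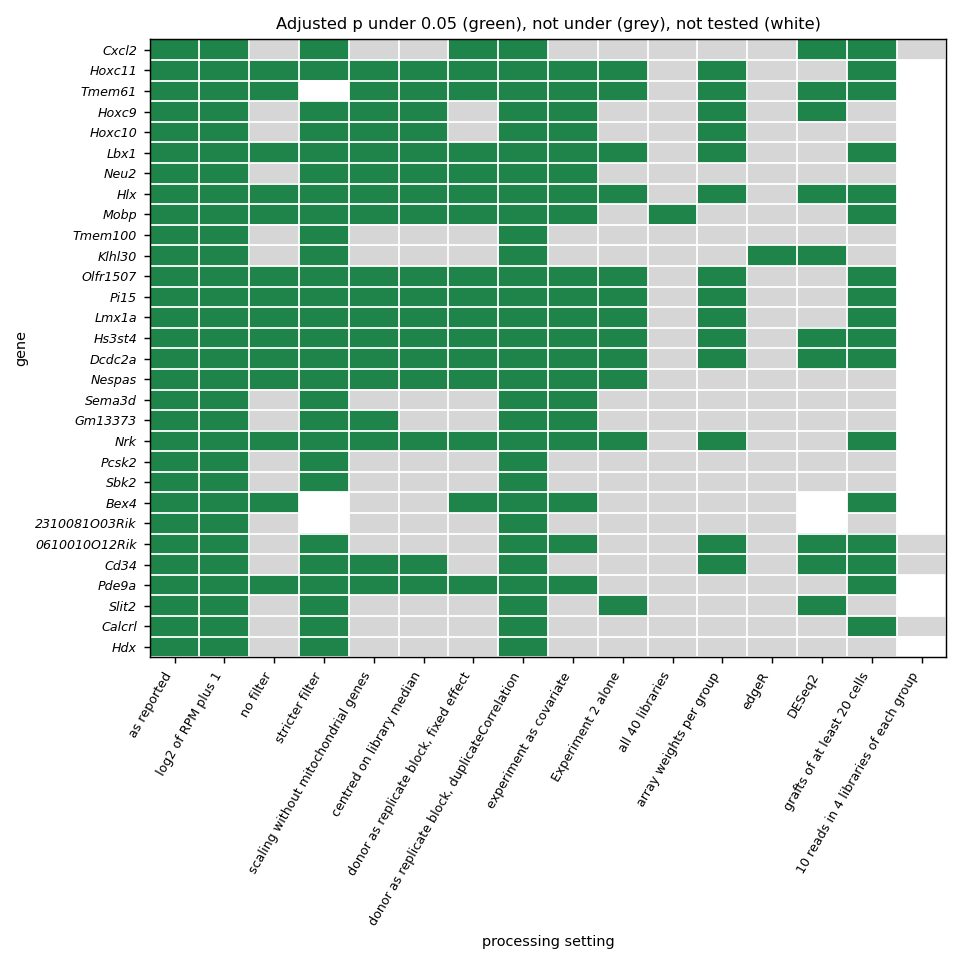
For each of the 30 genes (rows), whether its interaction passed an adjusted p of 0.05 (green), did not (grey) or was not tested (white) under the reported setting and 15 alternatives (columns). *Hlx*, *Dcdc2a* and *Hs3st4* were called under 12 of the 14 alternatives that tested them.

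Some genes passed under other scalings and not as deposited. *Ccnd1*, the D-type cyclin of cell cycle entry, had a median of 284 reads and at most 577 in TA pre-graft libraries and 15, 79 and 151 in TA grafts, and 23, 47 and 142 and then 8, 96 and 141 in EOM. It fell by 2.12 on the log2 scale in TA (adjusted p = 0.00321), the EOM difference was 0.72 (0.229), and its interaction of 2.84 ± 0.74 had an adjusted p of 0.117 as deposited, 0.0146 after centring, 0.0235 by edgeR and 2.68e-05 by DESeq2. *Cdh2*, N-cadherin, went from 0, 1.5 and 7 to 8, 20 and 81 reads in EOM, without overlap, and from 4, 10.5 and 29 to 0, 11 and 71 in TA (interaction 4.51 ± 1.15, adjusted p = 0.105, and 0.0457 after centring). *Dusp5*, an ERK phosphatase, rose by 1.32 in EOM (adjusted p = 0.0300), and its interaction had an adjusted p of 0.364 as deposited and 0.0301 after centring. *Igfbp5*, an IGF-binding protein, *Lix1*, *Hoxa10* and *Gm20398* were likewise called after centring (adjusted p-values of 0.0190, 0.0407, 0.0269 and 0.0486).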

How the data were processed

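RNA was measured in sorted MuSCs by sequencing, and 40 of the 80 samples are RNA libraries. The authors trimmed reads with Trim Galore (version 0.4.4) and aligned them to GRCm38 with HISAT2 (version 2.1.0), per the submitters' processing notes. Per the study's methods, counts were then scaled to library size and put on the log2 scale in SeqMonk, and the gene annotation is not given in the sources used here. Use of strand in the counting is not stated, so overlapping and antisense genes are treated as not told apart. The authors deposited log2 values of RPM, reads scaled to the library total, for 25900 genes, with a gene without reads set at 0.9 read. They also deposited counts of aligned reads for each library and quality values in percent (such as the mitochondrial share), used here for depth. Reads were recovered from the log2 values, and 99.99% came out whole within 0.05 read. The 10 libraries that the study marks as failed were left out.

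Genes with log2 RPM above 1 in at least 4 libraries were fitted with limma (version 3.58.1, R version 4.3.3) with a mean per group, and p-values were adjusted by Benjamini-Hochberg over all 14428 genes at 0.05. Alternatives included edgeR (version 4.0.16) and DESeq2 (version 1.42.0) on recovered reads. On simulated counts with known changes limma missed many of the smaller ones and made false calls, mostly among genes with few reads in a group, so the adjusted p-values of such genes are less strict than their threshold says. Floors of 3 reads per library cover counting error only. Named genes were all called genes, a list of 20 of those discussed by the study, and of each list its called members or the member with the smallest p. Genes called only after rescaling and the sets of genes of 1 muscle were chosen after their values were seen. A gene among those discussed by the study is not reported here. The members and lists were chosen with earlier results of these data known.

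Same-numbered libraries of an experiment come from the same donor mouse per the labels. In the 5 complete donors, deviations from the group means in the 30 pairs of such libraries correlated by -0.118 to 0.178 (median 0.0339), with 4 over 0.1. Pairs from donors without all 4 groups were not among them. P-values measure the spread between these samples.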

Additional observations from a re-analysis of the deposited data

Results flagged for a closer look

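The graft change differed between EOM and TA cells by the interaction test for 30 genes. The difference (log2) was -7.30 for *Mobp*, -6.47 for *Tmem100*, -6.08 for *Pde9a*, -6.04 for *Klhl30*, -5.67 for *Olfr1507*, -5.48 for *Pi15*, -5.43 for *Lmx1a*, -5.34 for *Slit2*, -5.29 for *Hs3st4*, -5.21 for *Dcdc2a* and -4.70 for *Calcrl*. It was -4.60 for *Hdx*, -4.59 for *Nespas*, -4.56 for *Sema3d*, -4.33 for *Gm13373*, -4.19 for *Nrk*, -4.19 for *Pcsk2*, -4.04 for *Sbk2*, -3.51 for *Bex4*, -2.96 for *2310081O03Rik*, -2.62 for *0610010O12Rik* and -2.09 for *Cd34*. The 8 positive differences were 3.65 for *Cxcl2*, 4.11 for *Hoxc11*, 4.64 for *Hlx*, 4.69 for *Tmem61*, 4.75 for *Hoxc9*, 4.87 for *Hoxc10*, 5.23 for *Lbx1* and 5.84 for *Neu2*.

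Single libraries stood apart from the rest of their group in 23 of the 120 groups examined, by Dixon's 95% limit on the gap to the nearest library relative to the range. Chance flags about 1 in 20 groups. Where the others held no read of a gene, the distance depends on the value given to a gene without reads.

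Among EOM grafts, a log2 level below that of the others was found for *Calcrl* in mouse 2 of Experiment 2 (-0.99) and for *Hdx* in mouse 3 of Experiment 2 (-0.71). Among EOM grafts, a log2 level above that of the others was found for *Mobp* in mouse 4 of Experiment 2 (2.66), for *Olfr1507* in mouse 3 of Experiment 2 (2.02), for *Pi15* in mouse 5 of Experiment 2 (2.58), for *Hs3st4* in mouse 4 of Experiment 2 (2.01), for *Nespas* in mouse 4 of Experiment 1 (2.50), for *Sbk2* in mouse 6 of Experiment 2 (1.07), for *Hoxc9* in mouse 2 of Experiment 2 (2.82) and for *Neu2* in mouse 1 of Experiment 2 (3.39).

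Among EOM pre-graft libraries, a log2 level below that of the others was found for *Sbk2* in mouse 2 of Experiment 2 (2.29) and for *Cxcl2* in mouse 1 of Experiment 2 (-0.90). Among EOM pre-graft libraries, a log2 level above that of the others was found for *Hlx* in mouse 1 of Experiment 2 (0.26) and for *Neu2* in mouse 4 of Experiment 2 (2.05).

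Among TA grafts, a log2 level below that of the others was found for *Cd34* in mouse 3 of Experiment 2 (5.67). Among TA grafts, a log2 level above that of the others was found for *Mobp* in mouse 3 of Experiment 1 (3.26), for *Olfr1507* in mouse 3 of Experiment 1 (2.40), for *Dcdc2a* in mouse 3 of Experiment 2 (3.04), for *Sema3d* in mouse 5 of Experiment 2 (0.94), for *Sbk2* in mouse 5 of Experiment 2 (0.94), for *Hoxc11* in mouse 2 of Experiment 2 (0.64) and for *Lbx1* in mouse 5 of Experiment 2 (1.94).

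Among TA pre-graft libraries, a log2 level above that of the others was found for *Bex4* in mouse 4 of Experiment 2 (0.63).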

How the results depend on the processing

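None of the 419 values of the 30 genes under 15 alternatives, nor the 900 values with 1 library left out, reversed its sign. Of these, 227 and 637 kept the call. As reported, 8 genes were called higher and 22 lower. Without a filter there were 4 and 10, after centring 14 and 10, and in Experiment 2 alone 5 and 10. With all 40 libraries there were 0 and 1 by limma (906 at an unadjusted p under 0.05), by edgeR 1 and 1, and by DESeq2 74 and 34. Lower calls numbered 14 without mitochondrial genes, where 3 genes rather than 5 were classed by both changes, 13 with experiment as covariate and 9 with array weights. With 10 reads required in each group, an alternative chosen after seeing the data, there were 0 and 0 by limma (377 at an unadjusted p under 0.05). The grafts of at least 20 cells, also chosen after seeing the data, gave 9 and 28, of which 17 were among the 30. The cause of these shifts was not tested. With the donor as replicate block there were 6 and 10 calls, all among the 30, and with the donor as a random replicate block 9 and 23.

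With 1 library left out, higher calls ran from 6 (without the TA graft of mouse 3 of Experiment 1) to 11, and lower calls from 11 (without the TA pre-graft library of mouse 3 of Experiment 2 or the EOM pre-graft library of mouse 5 of Experiment 1) to 32. The lower count moved by over 1.5 times for 16 of 30 libraries. In all 30 fits 17 genes kept their call, and 13 lost it in at least 1, with a highest adjusted p of 0.102. The median 95% interval of an interaction reached 1.98 on either side, and 67 genes (0.464%) had an interval within 1 of 0.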

Other observations

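Other genes lay close to the threshold without passing it in the reported setting. *Pdlim7*, a cytoskeletal adaptor, had reads in every library: 664, 908.5 and 1300 in EOM pre-graft libraries, 58, 176 and 406 in EOM grafts, 82, 211 and 353 in TA pre-graft libraries and 53, 208 and 394 in TA grafts. Its EOM level fell by 1.89 on the log2 scale (adjusted p = 9.51e-05), the TA difference was 0.01 (0.981) and the interaction -1.90 ± 0.46 (0.0733). *Espnl*, an espin-like protein, fell in EOM grafts from 50, 70.5 and 155 to 0, 0 and 9 reads (interaction -4.26 ± 0.99, adjusted p = 0.0509). *Aox3*, an aldehyde oxidase, fell in TA grafts from 1, 9 and 57 to 0 reads in all 7 (3.56 ± 0.86, 0.0740). *Olfr1508*, a paralogue of *Olfr1507*, had -3.54 ± 0.86 (0.0778). Some alternatives called them. *Pdlim7* passed by limma without mitochondrial genes in the totals (adjusted p = 0.0126) and by DESeq2 (0.0191). In Experiment 2 alone limma called *Espnl* (adjusted p = 0.0491), *Aox3* (0.0209) and *Olfr1508* (0.0209). With the donor as block none of them was called. These genes were chosen after their values were seen.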
